A study of Mus musculus with 2 samples.

Results

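The genes described are the 3 ligands of transforming growth factor beta (Tgfb1, Tgfb2, Tgfb3), their receptors (Tgfbr1, Tgfbr2, Tgfbr3) and the induced matrix protein Tgfbi, 7 of the 18685 genes in the antibody matrix. They were chosen by name as the ligand, receptor and target genes of 1 pathway, and all 7 had a row. The single-cell RNA libraries came from percutaneous tumour grafts of Hep1-6, a mouse hepatoma line, in male wild type C57BL/6 mice of 6 to 8 weeks. Mice were injected intraperitoneally with an antibody to SIGLEC15, a sialic acid-binding lectin of myeloid cells, or with control IgG, and the design text gives 3 mice per group for 1 library each. Cells enriched with CD45 beads and unsorted tumour cells were loaded in equal parts, so the share of each cell type was set partly by loading. The antibody library held 5482 cells and 74168827 UMIs (unique molecular identifiers, each standing for 1 captured RNA molecule), with a median of 13714.5 and a range of 553 to 46558 UMIs per cell. The IgG library had 5765 cells, its copy held 105 complete genes and 0 of the 7, so the genes were not analysed here in IgG and no antibody effect on them is given. The libraries shared 11 cell barcodes, and since 1 library entered each value, none rests on both.

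TGF-beta is secreted as a latent dimer, held by its own propeptide and by binding proteins of the matrix or the cell surface until it is released. Active ligand binds TGFBR2, which recruits and phosphorylates TGFBR1, and TGFBR1 then phosphorylates SMAD2 and SMAD3. TGFBR3, or betaglycan, is a co-receptor that presents ligand, TGF-beta 2 above all. The pathway drives matrix production in fibroblasts and restrains T cells, and in tumours ligand can come from tumour, immune and stromal cells. TGFBI is a secreted matrix protein named for its induction by TGF-beta.

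The authors' names of 30 clusters were grouped into classes, and 28 clusters held at least 30 cells. The cluster names were made on these same cells, so differences between clusters are descriptions. B with 18 cells and Adipocyte with 2 were left out of every order. Fibroblast&Endothelial_1 (96 cells) had 34916 CPM of 6 fibroblast markers (CPM is UMIs per 1000000 UMIs of the cells summed) and 13.3 CPM of 6 endothelial markers, with Cdh5, Kdr and Cldn5 at 0. Its name is therefore only in part matched by its genes. Fibroblast&Endothelial_2 (54 cells) had 8270 CPM of fibroblast, 2217 CPM of pericyte, 943 CPM of endothelial and 4012 CPM of hepatoma markers. That cluster mixes stromal and tumour markers. The cluster named DC (208 cells) had 4589 CPM of dendritic, 5040 CPM of neutrophil-like, 3184 CPM of macrophage and 2722 CPM of monocyte markers. H2-Ab1 made up 4266 CPM of its dendritic sum, against 3759 CPM in Macrophage cells, while Flt3, Xcr1 and Clec9a were at 10.8, 8.63 and 9.70 CPM. Most of the dendritic sum thus came from a gene that Macrophage cells also held, which bears on every comparison of these classes. MDSC cells (744) led with neutrophil-like markers at 48298 CPM, and Macrophage cells (532) with macrophage markers at 12526 CPM. Macrophage cells also held the T cell genes Cd3g at 129 CPM and Cd3d at 99.5 CPM. These stood at 889 and 721 CPM in T cells and at 34.5 and 30.2 CPM in DC. Afp, a hepatoma gene, stood at 3.53% of its tumour cell level in Fibroblast&Endothelial_1, 5.39% in T, 5.93% in DC, 6.75% in Macrophage, 10.7% in MDSC_1 to MDSC_4, 31.9% in all MDSC, 52.6% in Fibroblast&Endothelial_2 and 86.0% in Unknown cells. How far shared RNA or doublets contributed to the values below was not tested, apart from the values given beside them.

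Promoters from 250 bases before to 50 bases after the start were taken from a supplied RefSeq table (GRCm38.p6) that matched 5 of the 7 genes. All 5 are shown. Of them, Tgfb1, Tgfbi and Tgfbr1 were highest in myeloid classes and Tgfbr2 in Fibroblast&Endothelial_1. Tgfb2 was also highest there, but not beyond counting error over Fibroblast&Endothelial_2. Tgfb1 lies at chr7:25686752-25687051 (plus strand), Tgfbi at chr13:56609336-56609635 (plus), Tgfbr1 at chr4:47352972-47353271 (plus, start 1) and chr4:47385966-47386265 (plus, start 2), Tgfb2 at chr1:186705940-186706239 (minus) and Tgfbr2 at chr9:116175314-116175613 (minus). Capitals mark GC boxes (GGGCGG), Smad boxes (CAGAC) and PU.1 cores (GAGGAA), searched on both strands together with the AP-1 site TGANTCA, and no marked match overlaps another.
Tgfb1: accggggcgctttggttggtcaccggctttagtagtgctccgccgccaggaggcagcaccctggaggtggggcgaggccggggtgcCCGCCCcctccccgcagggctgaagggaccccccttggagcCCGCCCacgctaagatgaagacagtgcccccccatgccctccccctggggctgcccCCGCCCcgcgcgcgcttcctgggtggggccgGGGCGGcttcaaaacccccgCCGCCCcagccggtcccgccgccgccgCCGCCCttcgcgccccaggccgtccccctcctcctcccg
Tgfbi: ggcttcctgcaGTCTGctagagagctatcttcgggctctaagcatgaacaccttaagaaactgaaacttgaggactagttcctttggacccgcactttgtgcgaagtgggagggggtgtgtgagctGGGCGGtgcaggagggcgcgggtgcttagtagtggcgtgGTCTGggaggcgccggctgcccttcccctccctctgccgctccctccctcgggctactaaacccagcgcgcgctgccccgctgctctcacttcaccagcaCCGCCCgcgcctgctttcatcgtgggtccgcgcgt
Tgfbr1 start 1: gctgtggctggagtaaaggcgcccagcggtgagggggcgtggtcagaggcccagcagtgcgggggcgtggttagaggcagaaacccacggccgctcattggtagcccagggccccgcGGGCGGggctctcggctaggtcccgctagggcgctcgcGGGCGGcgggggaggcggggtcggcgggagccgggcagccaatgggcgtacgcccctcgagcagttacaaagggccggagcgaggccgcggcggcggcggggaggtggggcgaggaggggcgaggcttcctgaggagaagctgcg
Tgfbr1 start 2: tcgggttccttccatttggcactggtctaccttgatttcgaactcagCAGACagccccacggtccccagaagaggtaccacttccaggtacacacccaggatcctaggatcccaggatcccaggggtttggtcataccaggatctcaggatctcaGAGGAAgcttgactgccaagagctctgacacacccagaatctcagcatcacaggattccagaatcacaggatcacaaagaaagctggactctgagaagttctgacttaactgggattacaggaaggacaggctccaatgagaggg
Tgfb2: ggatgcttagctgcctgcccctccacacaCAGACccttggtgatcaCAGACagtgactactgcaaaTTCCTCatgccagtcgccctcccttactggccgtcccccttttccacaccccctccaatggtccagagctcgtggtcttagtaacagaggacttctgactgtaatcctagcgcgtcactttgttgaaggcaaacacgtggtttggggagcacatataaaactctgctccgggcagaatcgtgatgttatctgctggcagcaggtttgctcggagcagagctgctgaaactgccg
Tgfbr2: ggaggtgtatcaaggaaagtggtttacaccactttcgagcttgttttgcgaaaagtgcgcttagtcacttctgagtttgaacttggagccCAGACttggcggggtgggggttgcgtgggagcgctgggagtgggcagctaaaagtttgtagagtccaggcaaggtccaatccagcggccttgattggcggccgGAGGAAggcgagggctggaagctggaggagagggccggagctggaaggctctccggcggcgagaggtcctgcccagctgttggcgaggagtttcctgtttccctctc
Tgfb1 held 6 GC boxes in a window of 77% GC, against a median of 52.7% GC over 32851 promoters. Tgfbi held 2 GC boxes and 2 Smad boxes, Tgfb2 held 2 Smad boxes and 1 PU.1 core, and Tgfbr2 held 1 Smad box and 1 PU.1 core. At Tgfbr1, start 1 held 2 GC boxes and start 2 held 1 Smad box and 1 PU.1 core. None of these windows held an AP-1 match. Of all 32851 promoters, 35.7% held a GC box, 49.6% a Smad box, 28.3% a PU.1 core and 7.81% an AP-1 match. The matches are letters in these windows and say nothing of binding.

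Of the ligands, Tgfb1 was the one found across all large classes. It had 5219 UMIs in all. Its level was 278 CPM (95% interval 245 to 314) in DC and 260 CPM (245 to 277) in Macrophage cells, and these neighbours overlapped, with a ratio of 1.07 (0.928 to 1.23). MDSC followed at 188 CPM (165 to 214), and Macrophage exceeded MDSC 1.38-fold (1.20 to 1.60). MDSC_1 to MDSC_4, without the mixed MDSC_5 described below, had 209 CPM, a ratio to Macrophage cells of 0.801 (0.679 to 0.941). Myeloid classes thus held the high end. At the other end Tgfb1 stood at 110 CPM (96.8 to 125) in T cells, 67.3 CPM in Unknown, 52.1 CPM (50.4 to 53.9) in Tumour cells and 32.0 CPM (22.4 to 44.4) in Fibroblast&Endothelial_1. Fibroblast&Endothelial_2, with 39 UMIs, had 121 CPM (86.0 to 165), and 20 of those UMIs lay in its 14 cells with the highest 5% of doublet scores. All intervals here and below cover counting error only, since 1 library gives no replicate.

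The share of cells with a Tgfb1 UMI depends on depth, so each cell was also thinned to 1000 UMIs (shallower cells were left out). Macrophage cells had a Tgfb1 UMI in 68.4% unthinned and 21.6% thinned (50 left out), at a median of 6946.5 UMIs. DC cells had 61.1% and 24.9% (4 left out) at 3796 UMIs. The thinned intervals of DC (19.2% to 31.5%) and Macrophage cells (18.0% to 25.5%) overlap. MDSC cells had 22.8% and 17.6% (302 left out) at 1062 UMIs. Tumour cells had 56.7% and 5.14% (38 left out) at 20428 UMIs. The unthinned Tumour share was therefore above that of MDSC and the thinned one below it, and the CPM order follows the thinned share.

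Clusters within a class were compared next. MDSC_3 had 279 CPM, MDSC_1 224 CPM and MDSC_2 153 CPM, and MDSC_3 against MDSC_1 gave a ratio of 1.24 (0.855 to 1.81). Macrophage_1 had 291 CPM against 255 CPM in Macrophage_3, a ratio of 1.14 (0.945 to 1.38). Neither pair parted beyond counting error, while Macrophage_2 at 245 CPM lay below Macrophage_1, with a ratio of 0.840 (0.732 to 0.964). CD4_T cells held 216 CPM (151 to 301), against 111 CPM (94.8 to 129) in CD8_T_1, a ratio of 1.95 (1.31 to 2.82). CD8_T_2 had 94.4 CPM and CD3_T 51.5 CPM, so Tgfb1 in T cells was highest in the 47 CD4_T cells.

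**Figure D1:**
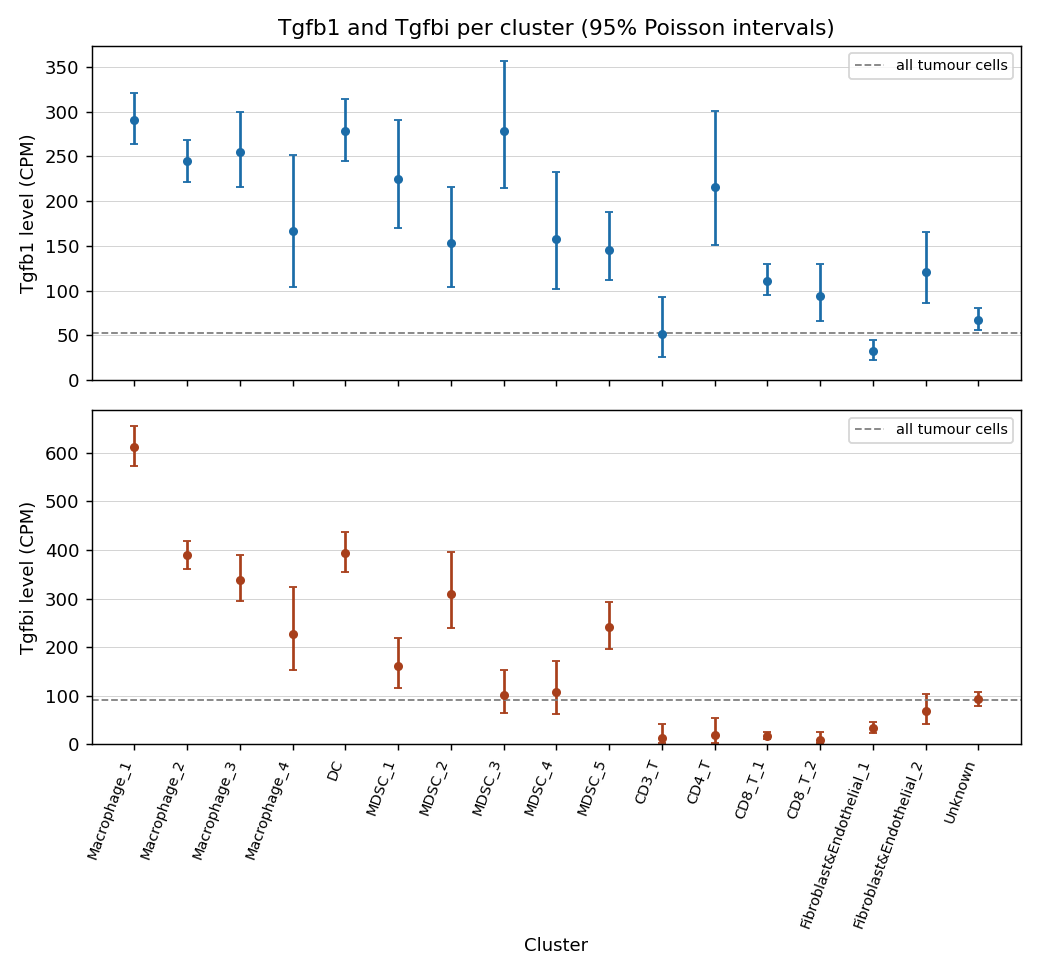
Level of Tgfb1 (upper panel) and Tgfbi (lower panel) in CPM for each cluster other than tumour clusters, in the antibody library; points are summed UMIs scaled to CPM, bars 95% Poisson intervals, and the dashed line is the level in all tumour cells. Tgfb1 reaches 291 CPM in Macrophage_1 and stays at 216 CPM in CD4_T, while Tgfbi is at 18.5 CPM in CD4_T.

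Tgfb2 and Tgfb3 were rare and were held mostly by stromal cells. Tgfb2 had 27 UMIs in 15 cells: Fibroblast&Endothelial_1 held 19 UMIs in 10 cells, 16.9 CPM (10.2 to 26.4), with up to 8 in 1 cell. Fibroblast&Endothelial_2 held 4 UMIs, all in 1 cell, or 12.4 CPM (3.38 to 31.8), and 3213 Tumour cells held 4 UMIs. No Tgfb2 UMI was found elsewhere: 0 of 532 Macrophage cells, which allows a share of up to 0.564%, 0 of 744 MDSC cells (up to 0.403%) and 0 of 520 T cells (up to 0.577%). These limits are on cells with a UMI, not on cells that express the gene, and MDSC and T cells had medians of 1062 and 2808.5 UMIs.

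Tgfb3 had 103 UMIs in 61 cells. Fibroblast&Endothelial_2 held 19 UMIs in 7 cells, 58.9 CPM (35.5 to 92.0), of which 13 lay in 1 cell. Fibroblast&Endothelial_1 held 50 UMIs in 23 cells, 44.5 CPM (33.0 to 58.7), and the ratio of Fibroblast&Endothelial_2 to it was 1.32 (0.737 to 2.29). Most Tgfb3 UMIs thus lay in stromal clusters, 48.5% in Fibroblast&Endothelial_1 and 18.4% in Fibroblast&Endothelial_2. Macrophage cells held another 24 UMIs, 6.15 CPM (3.94 to 9.16), of which 17 lay in Macrophage_1 and 7 in Macrophage_2. That level was 48.1-fold (20.9 to 124) over the 0.128 CPM of Tumour cells, which had 8 UMIs. MDSC and DC held 0 UMIs. Fibroblast markers summed to 30.0 CPM in Macrophage cells, against 34916 CPM in Fibroblast&Endothelial_1. With the highest 5% of doublet scores left out, the Fibroblast&Endothelial_2 to Fibroblast&Endothelial_1 ratio for Tgfb3 was 3.09 (1.69 to 5.41), now beyond counting error. For Tgfb2, Fibroblast&Endothelial_1 to Fibroblast&Endothelial_2 was 0.334 (0.0990 to 1.44), still within it. There, 8 of the 19 Tgfb2 UMIs of Fibroblast&Endothelial_1 lay in the 4 cells left out.

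**Figure D2:**
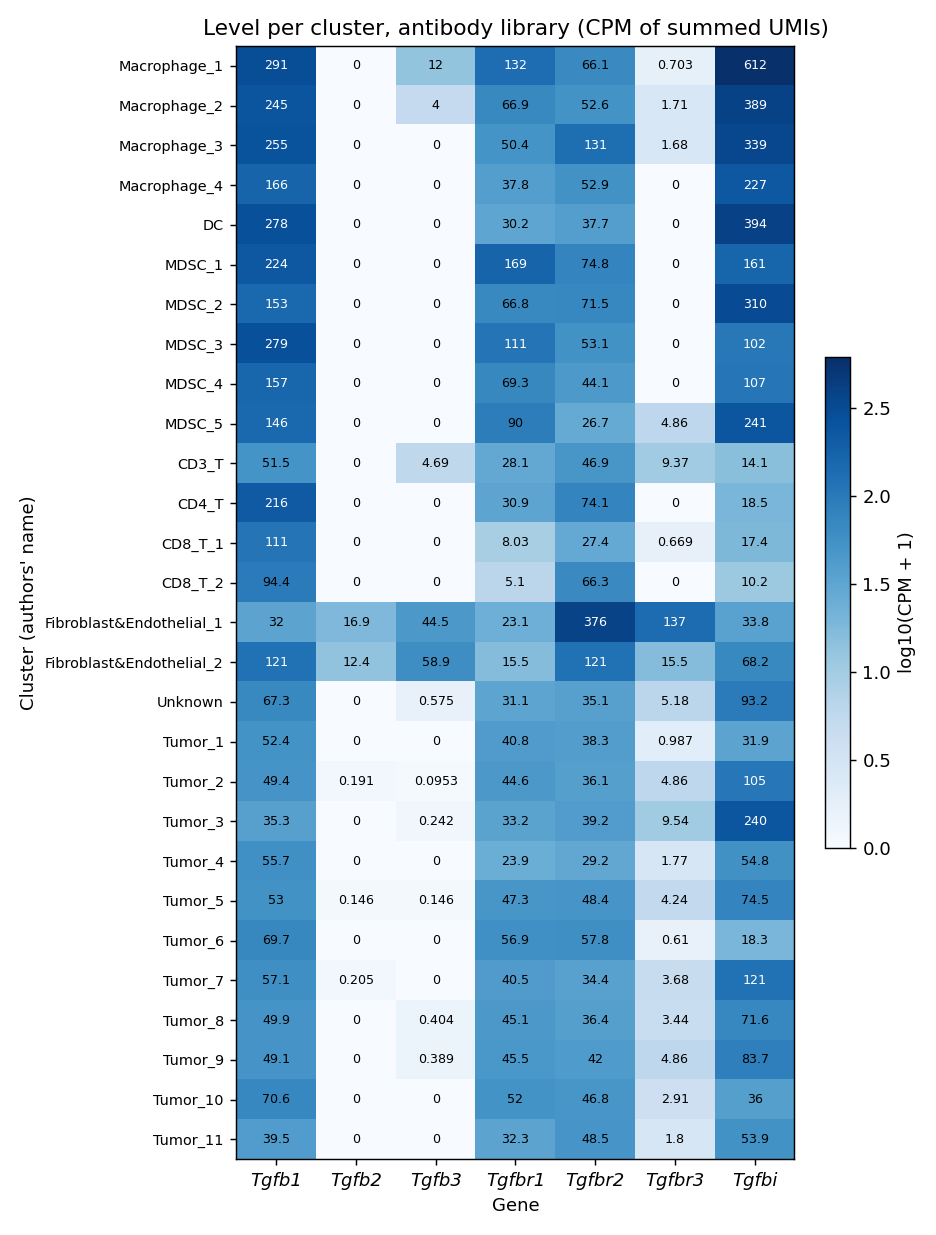
Levels of the 7 genes (columns) in the 28 clusters with at least 30 cells (rows) of the antibody library; each cell gives CPM of summed UMIs and the shade its log10(CPM + 1). Tgfb2, Tgfb3 and Tgfbr3 are highest in the fibroblast-named clusters and Tgfbi in Macrophage_1. Tgfb1 is also highest in Macrophage_1, but not beyond counting error over MDSC_3 (ratio 1.04, 0.799 to 1.38). Tgfbi in Tumor_3 (240 CPM) and Macrophage_4 (227 CPM) does not part beyond counting error (ratio 1.06, 0.739 to 1.57). Tgfb1 is at 216 CPM in CD4_T (35 UMIs) and 153 CPM in MDSC_2 (32 UMIs).

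The receptors differed in the class where each was highest. Tgfbr1, the type 1 kinase that phosphorylates SMAD proteins, was highest in myeloid cells with 103 CPM (86.2 to 123) in MDSC and 87.2 CPM (78.1 to 96.9) in Macrophage cells, a ratio of 1.18 (0.960 to 1.45). MDSC_1 to MDSC_4 alone had 110 CPM, a ratio to Macrophage cells of 1.26 (0.989 to 1.59). Tumour cells had 43.6 CPM (42.0 to 45.3), DC 30.2 CPM (20.1 to 43.6), Fibroblast&Endothelial_1 23.1 CPM (15.1 to 33.9) and T cells 11.1 CPM (7.15 to 16.3). DC cells, high for Tgfb1, therefore held less Tgfbr1 than Macrophage cells, at a ratio of 0.346 (0.227 to 0.510). Within Macrophage cells, Macrophage_1 had 132 CPM against 50.4 CPM in Macrophage_3, a ratio of 2.62 (1.78 to 3.997). Within MDSC, MDSC_2 had 66.8 CPM and MDSC_1 169 CPM, a ratio of 0.394 (0.199 to 0.735).

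Tgfbr2, the ligand-binding type 2 receptor, was highest in another class. Fibroblast&Endothelial_1 held 376 CPM (341 to 414), in 87.5% of its cells unthinned and 30.2% thinned. Fibroblast&Endothelial_2 held 121 CPM (86.0 to 165), so Fibroblast&Endothelial_1 was 3.11-fold higher (2.24 to 4.44). Of the 39 Tgfbr2 UMIs of Fibroblast&Endothelial_2, 24 lay in its 14 cells with the highest 5% of doublet scores. Macrophage cells followed at 69.5 CPM (61.5 to 78.3) and MDSC at 50.8 CPM (39.1 to 64.9). T cells had 39.3 CPM, DC 37.7 CPM and Tumour cells 41.6 CPM, with ratios to Tumour cells of 0.945 (0.757 to 1.17) for T cells and 0.907 (0.630 to 1.26) for DC. These last classes did not part beyond counting error.

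Between Macrophage_1 and Macrophage_3 Tgfbr2 ran opposite to Tgfbr1. Macrophage_1 had 66.1 CPM of Tgfbr2 against 131 CPM in Macrophage_3, a ratio of 0.504 (0.370 to 0.690), where Tgfbr1 gave 2.62. Macrophage_2 to Macrophage_1 gave 0.506 (0.398 to 0.641) for Tgfbr1 and 0.795 (0.590 to 1.07) for Tgfbr2, so that pair did not run opposite. Among T cells, CD4_T had 74.1 CPM and CD8_T_2 66.3 CPM, against 27.4 CPM in CD8_T_1, with ratios of 2.70 (1.29 to 5.24) and 2.42 (1.42 to 4.05). Tgfbr1 in CD4_T rested on 5 UMIs.

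**Figure D3:**
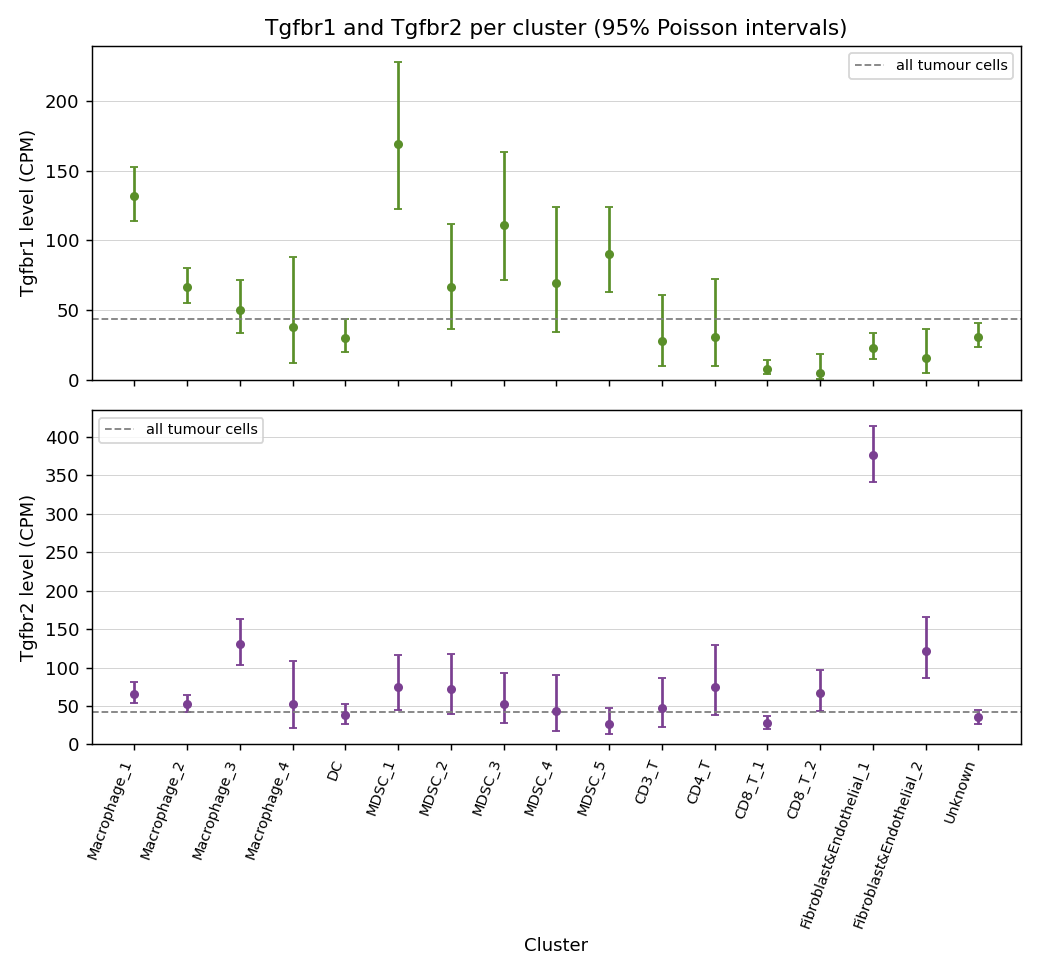
Level of Tgfbr1 (upper panel) and Tgfbr2 (lower panel) in CPM for each cluster other than tumour clusters, with 95% Poisson intervals and the level of all tumour cells as a dashed line. MDSC_1 is highest for Tgfbr1 at 169 CPM, but not beyond counting error over Macrophage_1 (ratio 1.28, 0.897 to 1.79). Fibroblast&Endothelial_1 is highest for Tgfbr2 at 376 CPM.

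Tgfbr3, the co-receptor, was held by Fibroblast&Endothelial_1 at 137 CPM (116 to 160), with a UMI in 63.5% of cells and 12.8% after thinning. Fibroblast&Endothelial_2 had 15.5 CPM (5.03 to 36.2), from 5 UMIs, so Fibroblast&Endothelial_1 was 8.84-fold higher (3.71 to 27.6), and 36.7-fold higher as a mean over cells. Tumour cells had 3.95 CPM (3.47 to 4.48) and Macrophage cells 1.28 CPM, and DC had 0 UMIs. Fibroblast&Endothelial_1 thus held 36.2% of all Tgfbr3 UMIs with 1.52% of the library's UMIs.

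Tgfbi was highest in Macrophage cells at 457 CPM (436 to 479), then DC at 394 CPM (354 to 436), a ratio of 1.16 (1.04 to 1.30). As a mean over cells that ratio was 0.938, and with clusters weighted alike 0.996, so the order of these classes depends on how cells are combined. MDSC had 195 CPM (171 to 220), Unknown 93.2 CPM, Tumour 90.5 CPM (88.2 to 92.9), Fibroblast&Endothelial_2 68.2 CPM and Fibroblast&Endothelial_1 33.8 CPM (23.9 to 46.4). Fibroblast&Endothelial_1, high for the receptor Tgfbr2, was therefore low for Tgfbi. T cells had 15.9 CPM (11.1 to 22.0), a UMI in 5.0% of cells unthinned and 1.21% thinned, against 69.7% and 31.5% in Macrophage cells. As a measure of free RNA from Macrophage cells, C1qa, a macrophage gene, stood in T cells at 1.23% of its Macrophage level, and Tgfbi at 3.48%. Tumour cells held more Tgfbi UMIs (5661) than Macrophage cells (1784) and are a further source. Of their Tumour levels, Afp stood in T cells at 5.39% and Tgfbi at 17.6%. How much of the T cell Tgfbi came from free RNA was not tested. In Tumour cells C1qa stood at 0.13% of its Macrophage level and Tgfbi at 19.8%. In Fibroblast&Endothelial_2 the 22 Tgfbi UMIs lay in 6 cells, and 21 of them in cells with the highest 5% of doublet scores.

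The myeloid clusters differed among themselves. Macrophage_1 had 612 CPM of Tgfbi against 339 CPM in Macrophage_3, a ratio of 1.81 (1.55 to 2.11), and Macrophage_4 had 227 CPM. MDSC_2 had 310 CPM, against 161 CPM in MDSC_1, a ratio of 1.92 (1.28 to 2.91). MDSC_5 held 241 CPM, from 99 of the 245 MDSC UMIs. Its 37 cells had 7091 CPM of macrophage, 5985 CPM of hepatoma and 1401 CPM of neutrophil-like markers, with Afp at 3049 CPM, against 4038 CPM in Tumour cells. The MDSC level is therefore also given for MDSC_1 to MDSC_4 alone, at 172 CPM (145 to 202).

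Tumour clusters ranged widely in Tgfbi, the TGF-beta induced matrix gene. The 11 of them ran from 18.3 CPM (15.2 to 21.9) in Tumor_6 to 240 CPM (229 to 251) in Tumor_3. Tumor_3, with 412 cells, had a Tgfbi UMI in 91.7% of its cells, and Tumor_6, with 329 cells, in 22.5%. Against the other tumour cells Tumor_3 gave a ratio of 3.54 (3.35 to 3.74) and Tumor_6 one of 0.185 (0.153 to 0.222). Tumor_7 (121 CPM) and Tumor_2 (105 CPM) came next to Tumor_3, and Tumor_1 had 31.9 CPM. Over the same clusters Tgfb1 ran from 35.3 to 70.6 CPM, Tgfbr1 from 23.9 to 56.9 CPM and Tgfbr2 from 29.2 to 57.8 CPM. The lowest Tgfbr1 and Tgfbr2 levels were in Tumor_4, the shallow tumour cluster, with a median of 2483 UMIs per cell. Median depths were close, at 20662.5 UMIs in Tumor_3 and 20262 UMIs in Tumor_6.

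Tgfbr3 followed Tgfbi across tumour clusters. Tumor_3 had 9.54 CPM of Tgfbr3 (7.55 to 11.9) and Tumor_6 0.610 CPM (0.166 to 1.56), with ratios to the other tumour cells of 3.08 (2.33 to 4.05) and 0.141 (0.0380 to 0.364). Tgfb1 ran the other way, at 35.3 CPM in Tumor_3 and 69.7 CPM in Tumor_6, with ratios of 0.645 (0.570 to 0.727) and 1.39 (1.26 to 1.54). Across the 11 clusters Pearson's r of log2(CPM + 20) was 0.92 for Tgfbr3 with Tgfbi and -0.69 for Tgfb1 with Tgfbi. These points share 1 library, so the r values are descriptions. Tgfbr3 stood at 4.86 CPM or less in every tumour cluster but Tumor_3, below the 20 CPM added. How far its r rests on Tumor_3 was not tested. Of Tgfbr1 and Tgfbr2, Tumor_6 was higher than other tumour cells at 1.35-fold (1.21 to 1.51) and 1.46-fold (1.30 to 1.62).

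**Figure D4:**
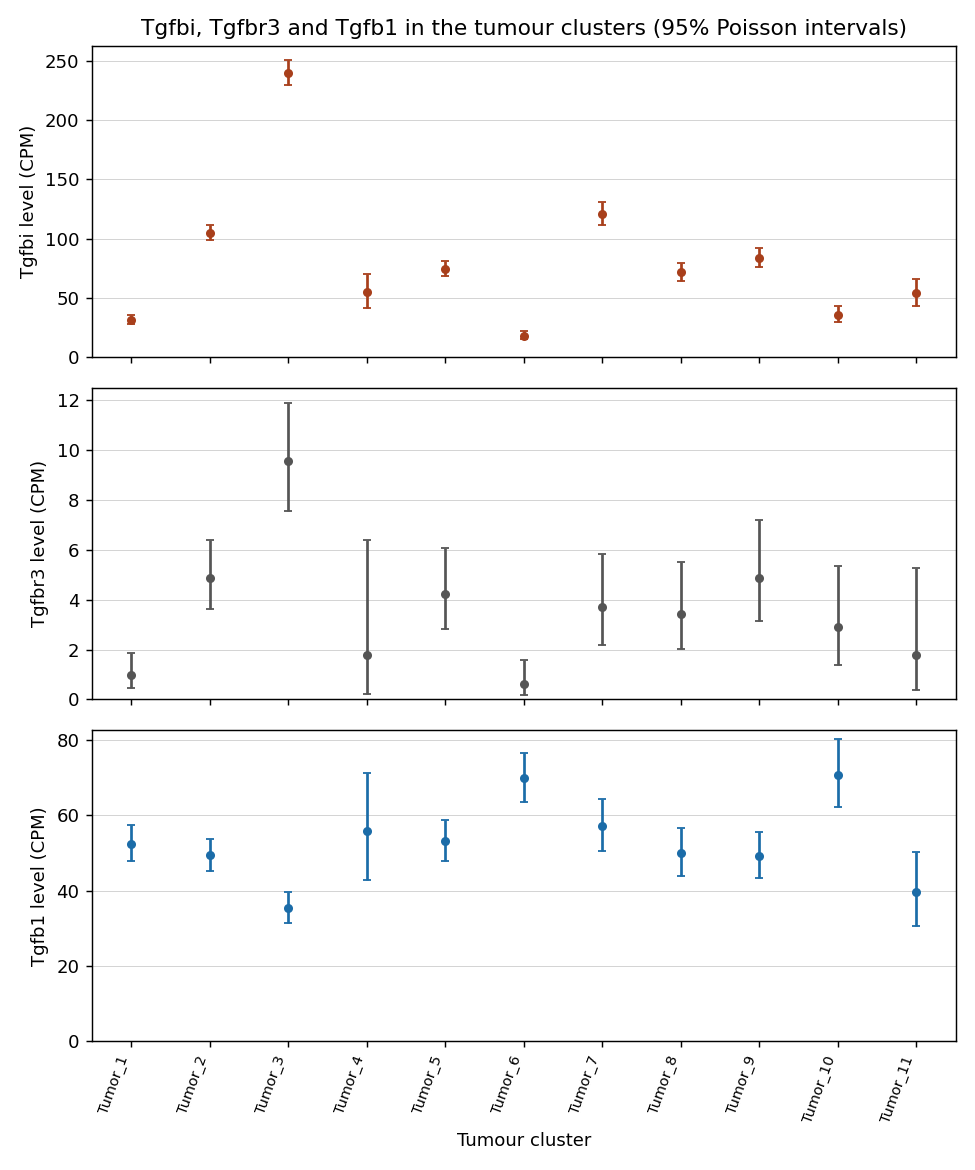
Levels of Tgfbi, Tgfbr3 and Tgfb1 in CPM in the 11 tumour clusters of the antibody library, with 95% Poisson intervals. Tumor_3 is highest for Tgfbi and Tgfbr3, and Tumor_6 is lowest for Tgfbi. The lowest Tgfb1 value is also in Tumor_3, but Tumor_11 does not exceed it beyond counting error (ratio 1.12, 0.845 to 1.47). Tumor_6 has the lowest Tgfbr3 value, from 4 UMIs, against 9 UMIs in Tumor_1.

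Over the 28 clusters Tgfb2 and Tgfb3 had an r of 0.94, Tgfb2 and Tgfbr3 of 0.87 and Tgfb2 and Tgfbr2 of 0.78. These are descriptions over clusters of 1 library. Each r rests on Fibroblast&Endothelial_1 (16.9 CPM of Tgfb2) and Fibroblast&Endothelial_2 (12.4 CPM, from 4 UMIs). Tgfb2 stood at 0.205 CPM or less in every other cluster. Tgfb2 and Tgfb3 also had fewer than the 200 UMIs asked of genes in the likeness values that follow. Genes most like Tgfb1 over all 28 clusters were Matk, Irf5 and Ctss, with r of 0.92, 0.91 and 0.91. Irf5 is a myeloid transcription factor and Ctss a lysosomal protease of antigen presentation. Those most like Tgfbr3 were Flnc, an actin-binding filamin, Medag and Adgrd1, with r of 0.97, 0.96 and 0.96. Those most like Tgfbi were Asah1, the acid ceramidase, Gpx1 and Creg1, with r of 0.85, 0.85 and 0.83. Tgfbr2 lay closest to Rcan1, Creb3l1 and Rcn3, at 0.88, 0.87 and 0.86. Tgfbr1 lay closest to Atp6v0b, Zfp106 and Irf2bp2, at 0.83, 0.83 and 0.83. Over the 11 tumour clusters alone, added after seeing the data, Tgfbi lay closest to Tesc, Aspscr1 and Etv5, at 0.97, 0.96 and 0.96; Tesc had 44.3 CPM in Tumor_3 and 1.68 CPM in Tumor_6.

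Beside the 7 genes, 65 other pathway genes in 4 lists were counted, of which 63 had a row (Nog and Grem1 did not) and 60 had at least 10 UMIs. A gene was counted when its CPM in a class was at least 4 times that in all other cells. In Fibroblast&Endothelial_1, 31 of 60 passed, where 13.1% of all 15331 genes did, and 4 of the 7 genes themselves (Tgfb2, Tgfb3, Tgfbr2, Tgfbr3). The median log2 ratio of the 60 genes was 2.17, against 0.14 over all genes. By list, 8 of 16 genes of latency and activation, 4 of 17 of signalling, 10 of 14 target genes and 9 of 13 other ligands and binding proteins passed.

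In latency, Ltbp1, which tethers latent ligand to matrix, was at 73.9 CPM in Fibroblast&Endothelial_1 and 0.11 CPM in other cells. Lrrc32, the surface anchor GARP, was at 68.5 CPM against 0.534 CPM. Among inhibitors, Pmepa1, which is induced by TGF-beta and limits SMAD signalling, was at 462 CPM against 2.53 CPM. Smad7, the inhibitory SMAD, was close at 141 CPM against 119 CPM. Target genes included Postn, periostin, at 1519 CPM against 2.74 CPM and Tagln, an actin-binding protein, at 340 CPM against 1.64 CPM. Fn1, fibronectin, reached 4437 CPM against 1150 CPM and missed the 4-fold limit. Col1a1, Col1a2, Col3a1 and Dcn also served as fibroblast markers here, so they are no independent sign.

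In Fibroblast&Endothelial_2, 29 of 60 passed, where 19.6% of all genes did, and 2 of the 7 (Tgfb2, Tgfb3). Counting only genes with at least 3 UMIs in the class, a rule added after seeing the data, 26 of 60 passed, where 6.57% of all genes did; Inhbc and Bmp6 had passed with 0 UMIs. Macrophage cells had 6 of 60, where 13.7% of all genes passed, and 3 of the 7 (Tgfb1, Tgfb3, Tgfbi). DC had 5 of 60 (background 12.1%) and Tgfb1, and MDSC 4 of 60 (background 10.2%) and 0 of the 7. The other cells here include Tumour cells, with 52.1 CPM of Tgfb1 and 0.128 CPM of Tgfb3. Macrophage Tgfb3 (6.15 CPM) lay below Fibroblast&Endothelial_2 (58.9 CPM) and Fibroblast&Endothelial_1 (44.5 CPM), while MDSC and DC held 0 UMIs. For Tgfb1, MDSC had 188 CPM and T cells 110 CPM, though Fibroblast&Endothelial_1 had 32.0 CPM. No count of the 7 genes without tumour cells is given here. In these myeloid classes the list share (10% in Macrophage, 8.33% in DC and 6.67% in MDSC cells) lay near or somewhat below that of all genes under this rule. These shares rest on 4 to 6 genes, and the gaps were not tested. Nrros, the myeloid anchor of latent TGF-beta 1, passed in all of them, at 184 CPM in DC, 134 CPM in Macrophage and 128 CPM in MDSC cells. Tumour cells had 2 of 60 (background 4.47%), Cdkn2b, a cell cycle inhibitor, and Bmp4, a ligand of the superfamily, and 0 of the 7. T cells had 1 of 60 (background 11.1%), Gdf11, and Unknown 0 of 60 (background 2.0%), each with 0 of the 7. With tumour cells left out of the other cells, the counts were 16 of 60 in Fibroblast&Endothelial_2 (background 13.2%), 2 of 60 in Macrophage (background 3.37%), 1 of 60 in DC (background 3.22%) and 2 of 60 in MDSC cells (background 6.29%), so the Macrophage share then lay at that of all genes.

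**Figure D5:**
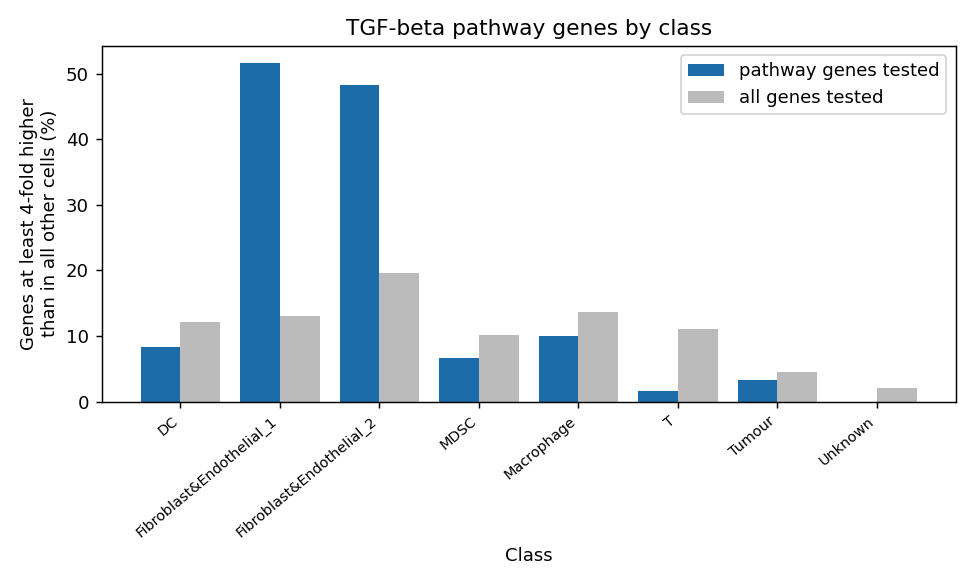
Share of the 60 tested pathway genes (left bars) and of all 15331 tested genes (right bars) with a CPM at least 4 times that of all other cells, by class. The pathway share is 51.7% in Fibroblast&Endothelial_1. Its values in Macrophage, DC, MDSC, T, Tumour and Unknown cells are lower than those of all genes. They rest on 6 genes or fewer per class, and the gaps were not tested.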

How the data were processed

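Single-cell 3' RNA (10x Genomics) was measured in 1 antibody and 1 IgG library. Per the submitters' processing notes, Cell Ranger 2.1.1 was used. How cells were filtered and clustered, any doublet removal and the genome build: not given in the sources used here. The authors deposited a cluster name per cell and natural log values. These equal ln(1 + UMIs scaled to 10000 per cell), as tested on the values.

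From these, UMI counts were recovered (whole within 0.01, and summing to the depth in 5482 of 5482 antibody cells) with Python 3.11.15, numpy 2.4.6, pandas 2.3.3, scipy 1.17.1, scanpy 1.11.5 and matplotlib 3.10.9. UMIs were summed per cluster and class and given as CPM with exact Poisson 95% intervals, ratios with exact conditional intervals, and shares of cells with thinning to 1000 UMIs. No test was run, because each group is 1 library and cells are not replicates. No cell was removed. Scrublet called 3 of 5482 cells (0.0547%) doublets, too few to have worked. Shares, intervals and calls were tested on simulated data. List calls used genes with at least 10 UMIs, 0.5 added to each summed count and a ratio of at least 4. Likeness used log2(CPM + 20) of genes with at least 200 UMIs over 28 clusters, naming the 3 highest genes per gene. The members, lists and rules were chosen with earlier results of these data known; named genes are the 7, the list genes and the 3 most like each. Alternatives changed the cells, the combining of cells and clusters, the thinning and the list rule. The values of 1 gene of the lists are not reported here. Positions are from RefSeq promoters (GRCm38.p6).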

Additional observations from a re-analysis of the deposited data

How the results depend on the processing

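No paired analysis was possible because each group has 1 library. For the ratio of the highest class to the next, 35 alternatives stayed within the counting interval. Taking the mean over cells, the ratio of DC to Macrophage for Tgfb1 was 1.29, that of Fibroblast&Endothelial_1 to Fibroblast&Endothelial_2 for Tgfbr3 was 36.7, and that of Macrophage to DC for Tgfbi was 0.938. With clusters weighted alike, the last was 0.996, so which of Macrophage and DC is higher for Tgfbi depends on how cells are combined. With the highest 5% of doublet scores left out (an alternative added after seeing the data, since scrublet called too few doublets for the planned one), Fibroblast&Endothelial_1 to Fibroblast&Endothelial_2 for Tgfb2 gave 0.334 and Fibroblast&Endothelial_2 to Fibroblast&Endothelial_1 for Tgfb3 gave 3.09; that step removed 4 cells with 8 of the 19 Tgfb2 UMIs and, from Fibroblast&Endothelial_2, 14 of 54 cells with 21 of 22 Tgfbi and all 5 Tgfbr3 UMIs, so Tgfbr3 gave no value. Thinning to 500 or 2000 UMIs moved none of 14 share ratios. For Tgfb2 and Tgfbr3 these ratios could hardly have moved, because Fibroblast&Endothelial_2 held 4 and 5 of their UMIs before thinning. No conclusion is drawn from thinning for Tgfb2 and Tgfbr3.

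List counts moved as follows. Each is of 60, with the share of all genes at the same rule in parentheses. At a fold of at least 2, DC had 10 (27.9%), MDSC 9 (21.9%), Macrophage 13 (26.1%), T 4 (23.0%) and Tumour 7 (13.2%). At a fold of at least 8, T had 0 (5.97%) and Tumour 0 (0.567%). Without tumour cells in the comparison, DC had 1 (3.22%), MDSC 2 (6.29%), Macrophage 2 (3.37%), T 2 (6.17%), Fibroblast&Endothelial_2 16 (13.2%) and Unknown 4 (9.51%). Counts within 1.5 times of the reported one, as all those of Fibroblast&Endothelial_1 were (26 to 39, against 31), are not listed. The comparison of antibody with IgG was not run, because no row of these genes is complete in the IgG copy. Depth limits the rare genes most: Tgfb2 rests on 27 UMIs.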
